A study of Drosophila melanogaster with 12 samples.

Results

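The genes described are 8 members of *Drosophila* JAK-STAT signaling: the ligand genes upd1, upd2 and upd3, the receptor gene dome, the kinase gene hop, the transcription factor gene Stat92E, and the inhibitor genes Socs36E and Ptp61F. They were looked up in the platform annotation of the array, and a gene counted as measured where at least 1 probe set is annotated to it alone. By this rule 5 of the 8 genes were measured, with 6 probe sets, out of 11981 genes and 18769 probe sets in all. These are upd1, upd2, dome and Stat92E with 1 probe set each, and Ptp61F with 2. For upd3, hop and Socs36E the annotation lists no probe set, alone or shared with another gene, so the kinase, 1 ligand and 1 of the inhibitors were not analysed here.

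In flies, the JAK-STAT pathway carries signals of secreted cytokines called Unpaired into the nucleus. The cytokines bind the receptor Domeless at the cell surface, the receptor-bound kinase Hopscotch is activated, and the phosphorylated transcription factor Stat92E switches on its target genes. In blood cells and fat body the pathway takes part in hemocyte development and in the response to wounding, stress and infection. Much of it works through phosphorylation, which mRNA levels do not show.

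The RNA came from SL2, a cell line from fly embryos that resembles macrophages, and was measured in 3 biological repeats for each of 4 groups. Cells received 12.5 µg/ml dsRNA for 4 days, directed against Tis11 (Tis11 kd) or, as a control, against GFP (GFP kd). In 1 group of each kind 10 µg/ml lipopolysaccharide (LPS) was present for 4 h before lysis, so that the groups are Tis11 kd with LPS, Tis11 kd, GFP kd with LPS and GFP kd. Tis11 is an RNA-binding protein that promotes the decay of mRNAs with AU-rich elements, and the design asks which mRNAs change when it is depleted. All groups carry a dsRNA, so untreated cells are not part of the comparison, and all share 1 cell line. Signals are log2 values from RMA, which corrects background, makes the distributions of the arrays alike and gives 1 value per probe set and array. A value of one probe set cannot be set against that of another, since probes differ in how strongly they bind.

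Over all probe sets the array medians lay between 5.05 and 5.22. For Tis11 itself the annotation lists no probe set, alone or shared with another gene, so the knockdown was not checked here. Per the study's methods, it was examined separately by Northern blot and qPCR. LPS treatment was visible in antimicrobial peptide genes, of which 5 of 11 were measured. All 5 had a higher mean with LPS, by 1.07 to 6.89 log2 units in Tis11 kd cells and by 0.85 to 6.63 in GFP kd cells. At a limma Benjamini-Hochberg adjusted p under 0.05, 4 of these 5 passed in Tis11 kd cells and 3 in GFP kd cells. Of all probe sets, 0.0799% and 0.0533% did. A mean of 6 over the 12 arrays is used here as a rough mark below which signals are near background and differences are compressed, and 38.3% of all probe sets reached it. All 8 plasmatocyte markers did (7.20 to 12.05), as did 0 of 4 measured fat body, 0 of 3 measured neuron, 2 of 4 lamellocyte and 2 of 4 crystal cell markers. These are counts by marker, and since probes differ in binding they do not rank the cell types.

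The measured ligand genes had signals near background in all groups. The upd1 probe set read 4.26, 4.42 and 4.33 in Tis11 kd cells with LPS and 4.51, 4.27 and 4.42 in Tis11 kd cells. It read 4.45, 4.27 and 4.22 in GFP kd cells with LPS and 4.42, 4.47 and 4.33 in GFP kd cells. All 12 values fall within 0.29 log2 units, the groups overlap, and the mean of 4.36 is below the median of every array.

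For upd2, whose product is a ligand like Upd1, the signals were 5.32, 5.52 and 5.01 in Tis11 kd cells with LPS and 5.24, 5.38 and 5.27 in Tis11 kd cells. In GFP kd cells they were 5.42, 5.07 and 5.67 with LPS and 5.02, 5.05 and 5.48 without. The mean of 5.29 is also under 6, and the highest and the lowest value, 5.67 and 5.01, both come from LPS-treated cells. The genes of the 3 ligands lie close together on chromosome X, where upd3 and upd1 are consecutive coding genes in the RefSeq annotation (Release 6). Neither measured ligand gene reached 6 in any array.

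The receptor gene dome was clearly above that level and was the most variable of the measured genes. Its signal was 7.51, 7.54 and 6.38 in Tis11 kd cells with LPS and 7.88, 7.0 and 7.31 in Tis11 kd cells. In GFP kd cells it was 7.38, 6.72 and 7.78 with LPS and 6.66, 7.24 and 7.86 without. The 12 values span 1.49 log2 units, while the 4 group means span only 0.25, and every group holds both a high and a low array. Group means were 7.14 ± 0.66 for Tis11 kd with LPS, 7.40 ± 0.45 for Tis11 kd, 7.29 ± 0.54 for GFP kd with LPS and 7.25 ± 0.60 for GFP kd (SD, n = 3 each).

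Stat92E, which encodes the only STAT protein of the fly, was read by a probe set of the type that can bind several transcripts but is annotated to this gene alone. It gave 10.81, 10.19 and 10.67 in Tis11 kd cells with LPS and 10.72, 11.01 and 10.91 in Tis11 kd cells. In GFP kd cells it gave 10.82, 11.16 and 9.92 with LPS and 10.99, 10.96 and 10.25 without. The signal was far above background in all 12 arrays. The lowest values, 9.92, 10.19 and 10.25, come from 3 different groups, and the groups overlap.

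Ptp61F encodes a tyrosine phosphatase that removes activating phosphates from the pathway. Its probe set 1635729_a_at read 8.35, 8.23 and 7.24 in Tis11 kd cells with LPS and 8.42, 8.25 and 8.41 in Tis11 kd cells. It read 8.49, 7.54 and 8.45 in GFP kd cells with LPS and 8.13, 8.35 and 8.40 in GFP kd cells. Of the 12 values, 10 lie within 8.13 to 8.49, and the remaining 7.24 and 7.54 are 1 array of each LPS-treated group.

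The other Ptp61F probe set, 1638438_a_at, read 8.89, 8.67 and 8.46 in Tis11 kd cells with LPS and 9.06, 8.73 and 8.95 in Tis11 kd cells. In GFP kd cells it read 8.85, 8.46 and 9.02 with LPS and 8.56, 8.83 and 8.89 without. Its lowest values come from the same arrays as those of the first, but its range is narrower, at 0.60 against 1.25 log2 units. Over the 12 arrays the probe sets of this gene followed each other with Pearson's r = 0.85 and Spearman's rho = 0.88, given as a description of arrays that share groups and processing.

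**Figure D1:**
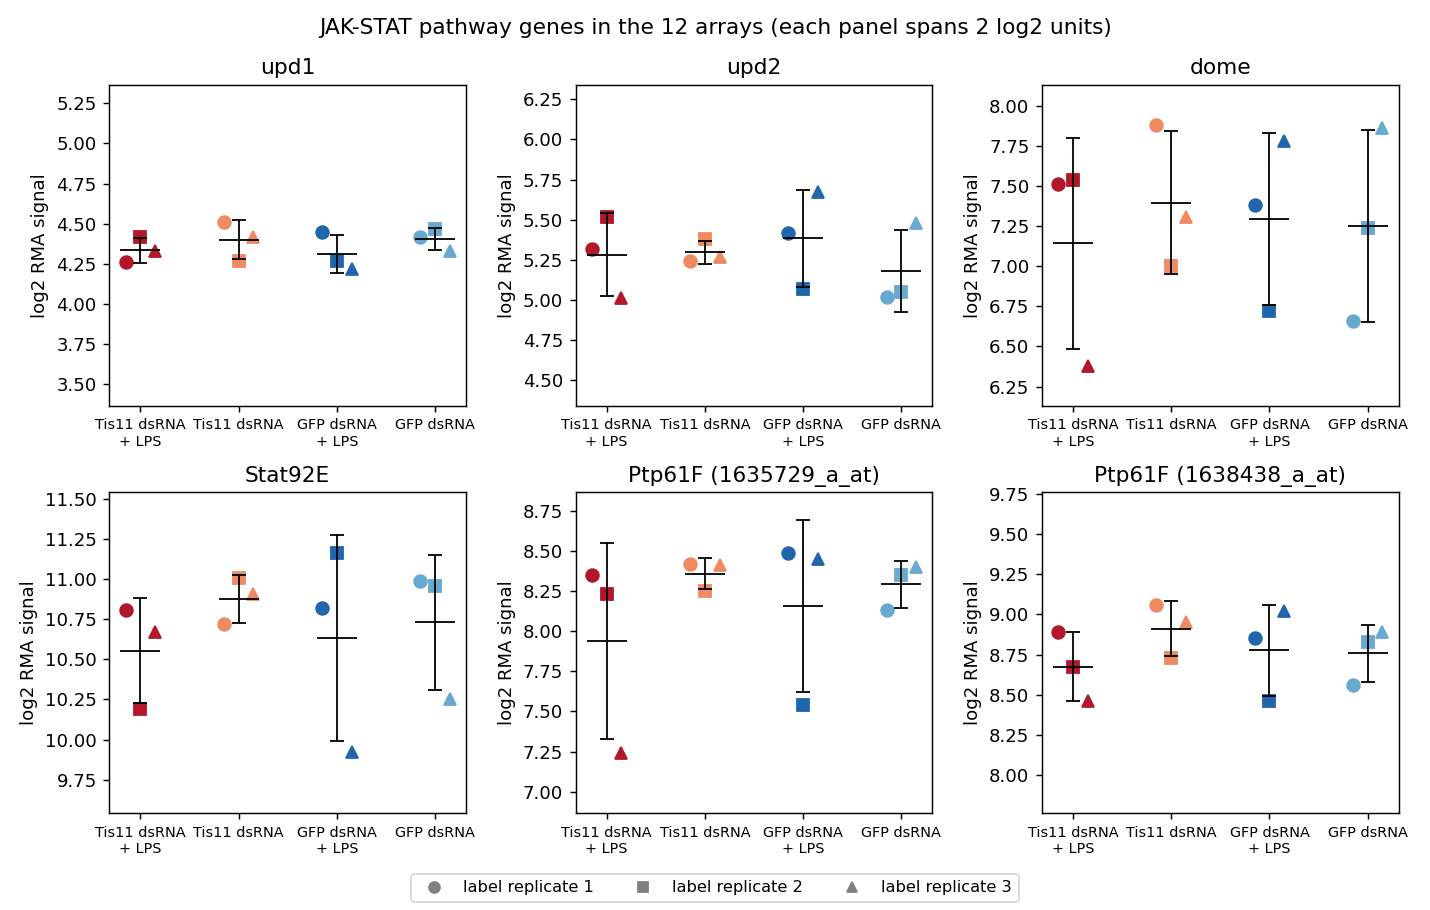
Log2 RMA signal (vertical axis, each panel spanning 2 log2 units) of the 6 probe sets in the 4 groups, with 1 point per array, the shape giving the replicate number of the labels, and with the mean and SD of 3 arrays as lines. The groups overlap in every panel, and for dome the 12 values span 1.49 log2 units against 0.25 for the group means.

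LPS treatment was not followed by a detectable change of any of these genes, where less of an mRNA per cell and fewer cells that hold it cannot be told apart in total RNA. In Tis11 kd cells all 6 probe sets had a lower mean with LPS, by 0.01 to 0.42 log2 units, and none passed limma's test at a Benjamini-Hochberg adjusted p under 0.05 over all 18769 probe sets, a call that 0.0799% of all probe sets received. None passed at an unadjusted limma p under 0.05 either, which 2.71% of all did, and for all 6 the groups overlap, against 8.37% of probe sets whose groups do not. No difference was over 0.5 in size, as were 2.09% of all. The median of the 6 was −0.24, against 0.01 over all probe sets, of which 53.7% were above 0.

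The difference was −0.42 ± 0.29 (SE) for Ptp61F by 1635729_a_at, with a 95% interval of −1.09 to 0.26. It rested largely on 1 array, since it was −0.07 without Tis11 kd with LPS replicate 3, the array with 7.24. By 1638438_a_at the Ptp61F difference was −0.24 ± 0.15 (interval −0.59 to 0.12), and −0.13 without the same array. For Stat92E it was −0.32 ± 0.18 (interval −0.75 to 0.10), and −0.14 without Tis11 kd with LPS replicate 2, the array with 10.19. Without Tis11 kd with LPS replicate 1 the differences were larger in size. They were −0.62 and −0.35 for Ptp61F by 1635729_a_at and 1638438_a_at, and −0.45 for Stat92E. With no array left out, exact two-sided permutation tests of 3 arrays against 3 gave p = 0.2 for each of these differences, where the smallest possible is 0.1. For dome the difference was −0.25 ± 0.36, or 0.84-fold with an interval of 0.467 to 1.51-fold, so that a sizeable fall and a sizeable rise of the receptor mRNA are both within the error.

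In GFP kd cells the LPS differences of the 6 probe sets were 3 above and 3 below 0. None of them passed the adjusted test, as did 0.0533% of all probe sets, or an unadjusted limma p under 0.05, as did 1.67%, and all groups overlap (6.49% of all probe sets do not). No difference was over 0.5 in size (1.52% of all were). The highest was upd2 at 0.20 ± 0.20 (SE), which was 0.06 without GFP kd with LPS replicate 3 and 0.36 without GFP kd with LPS replicate 2, and the lowest Ptp61F by 1635729_a_at at −0.13 ± 0.26. For dome the difference was 0.04 ± 0.37 and for Stat92E −0.10 ± 0.36. The median was −0.04, against −0.02 over all probe sets.

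The LPS differences of both backgrounds were also averaged, with all 12 arrays in 1 fit. The SE was then smaller than in either background alone, except for Stat92E. For that gene it was 0.22, against 0.18 in Tis11 kd cells and 0.36 in GFP kd cells. None of the 6 probe sets was called, as were 0.155% of all, and none had an unadjusted limma p under 0.05, as did 4.32%, and no difference was over 0.5 in size, as were 1.48%. The 95% interval lay within ±0.5 log2 units for upd1 (−0.23 to 0.07), upd2 (−0.19 to 0.38) and Ptp61F by 1638438_a_at (−0.37 to 0.15). It was wider for Ptp61F by 1635729_a_at, with a difference of −0.28 and an interval of −0.75 to 0.19, and for Stat92E, with −0.21 and −0.69 to 0.27. Without 1 array in turn the difference ran from −0.38 to −0.10 for this Ptp61F probe set and from −0.34 to −0.03 for Stat92E. It was nearest 0 without Tis11 kd with LPS replicate 3 for Ptp61F, and without GFP kd with LPS replicate 3 for Stat92E. For dome the difference was −0.11 and the interval, −0.74 to 0.53, was the widest of the 6. For upd1 and upd2, whose means are under 6, differences are compressed. Their narrow intervals do not bound the change of the mRNA. Permutation tests that exchanged LPS labels within each background (400 arrangements, exact, two-sided) gave p between 0.175 for upd1 and 0.745 for dome, where the smallest possible is 0.005.

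Depletion of Tis11 was likewise not followed by a detectable change. Without LPS, Tis11 kd minus GFP kd was −0.004 for upd1, 0.11 for upd2, 0.14 for dome, 0.15 for Stat92E, and 0.07 and 0.15 for Ptp61F by 1635729_a_at and 1638438_a_at. The SE of these log2 differences ran from 0.10 for upd1 to 0.34 for dome. Of the 6 intervals, 4 lay within ±0.5, those of upd1, upd2 and both Ptp61F probe sets. The study picked Tis11-sensitive mRNAs by a rise of over 0.5, not by an interval. For upd1 and upd2, with signals near background, differences are compressed and the intervals do not bound the change of the mRNA. With LPS the differences were 0.02 for upd1, −0.10 for upd2, −0.15 for dome, −0.08 for Stat92E, and −0.22 and −0.10 for Ptp61F by 1635729_a_at and 1638438_a_at. These comparisons share no arrays with each other. The 5 probe sets above 0 without LPS were below 0 with LPS, a contrast tested by the interaction.

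None of the 6 probe sets passed the adjusted test in either Tis11 comparison, in which 0% of all probe sets did. None had an unadjusted limma p under 0.05, against 1.1% of all without LPS and 2.6% with LPS, and all groups overlap, against 4.47% and 9.73% of all probe sets whose groups do not. A difference over 0.5 in size was found for none of them, against 0.405% of all without LPS and 0.613% with LPS. Averaged over both LPS states, the Tis11 kd difference was between −0.08 and 0.03 for all 6 probe sets, with 0 called (0% of all) and 0 at an unadjusted limma p under 0.05 (1.86% of all). For dome it was −0.004 with an interval of −0.64 to 0.63, and for Stat92E 0.03 with −0.45 to 0.51. The exact two-sided permutation p within LPS states ran from 0.625 to 0.99.

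**Figure D2:**
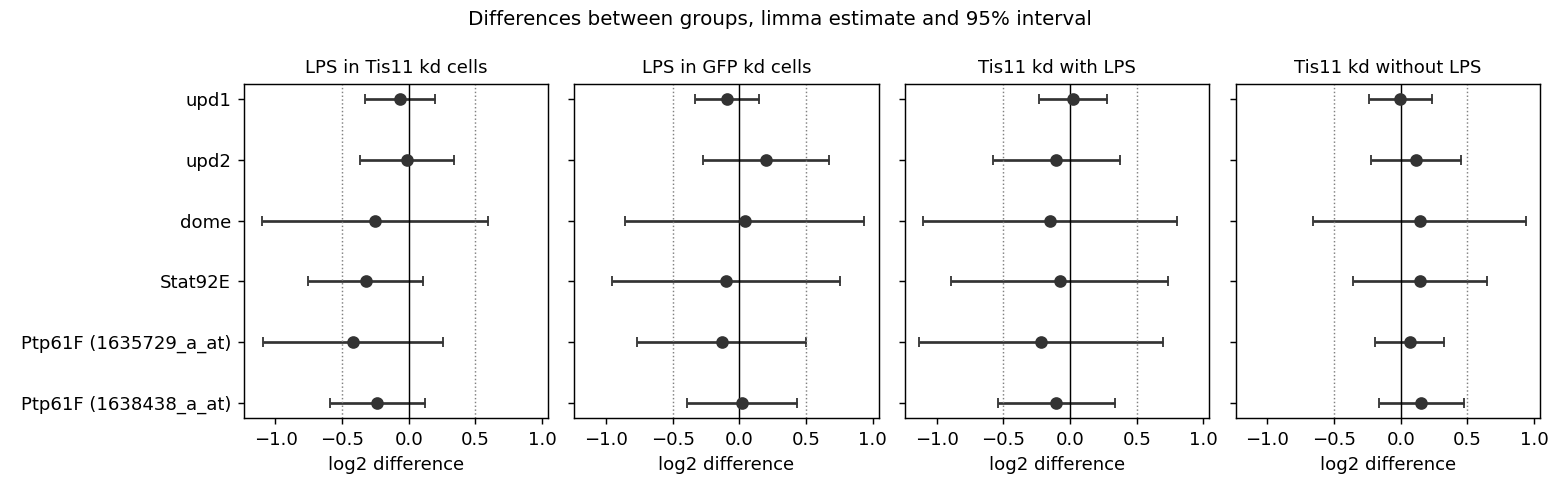
Log2 difference of group means (horizontal axis, point) with limma's 95% interval (bar) for the 6 probe sets in the 4 comparisons of 3 arrays against 3; LPS minus no LPS in the left panels, Tis11 kd minus GFP kd in the right ones, and dotted lines at ±0.5. Every interval includes 0, and those of dome are the widest, reaching −1.10 in both comparisons that use Tis11 kd with LPS. Those of Ptp61F by 1635729_a_at reach −1.09 (LPS in Tis11 kd cells) and −1.13 (Tis11 kd with LPS).

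The interaction asks whether LPS acted differently in Tis11 kd cells and GFP kd cells. For 5 of the 6 probe sets it was below 0, from −0.29 for dome to −0.22 for upd2, and for upd1 it was 0.03. The SE was 0.57 for dome, 0.43 for Stat92E and for Ptp61F by 1635729_a_at, and 0.24 for Ptp61F by 1638438_a_at, so that none of these was far larger than its error. None was called (0% of all probe sets) and none had an unadjusted limma p under 0.05 (1.99% of all), and the adjusted p was 1.00 for each.

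The spread of these genes lay mainly between arrays of the same group. The pooled SD within groups was 0.56 log2 units for dome, 0.42 for Stat92E, 0.42 and 0.22 for Ptp61F by 1635729_a_at and 1638438_a_at, 0.24 for upd2 and 0.10 for upd1, against a median of 0.26 over the 7194 probe sets whose mean was 6 or more. This spread was shared between genes. In each of the 4 groups the array with the highest dome signal, between 7.54 and 7.88, had the lowest Stat92E signal. The same is true of 16.8% of the 7194 probe sets. In each group the array with the lowest dome signal, between 6.38 and 7.0, also had the lowest signal in both Ptp61F probe sets, as it had in 18.1% of probe sets. These arrays are Tis11 kd with LPS replicate 3, Tis11 kd replicate 2, GFP kd with LPS replicate 2 and GFP kd replicate 1.

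Principal components of the 7194 probe sets, after the mean of each group was subtracted, describe this spread. The first component held 61.4% of the variation within groups and the second 24.9%. The first took up 90.8% of the spread of dome, 74.4% of that of Stat92E, 66.9% of that of upd2, and 53.6% and 68.9% of that of Ptp61F by 1635729_a_at and 1638438_a_at. For upd1 it was 2.57%. The median over the 7194 probe sets was 45.6% and the 75th percentile 74.0%, so that dome and, narrowly, Stat92E lie above that percentile. Stat92E ran opposite to dome along it, with r = −0.86 against 0.95, while upd2 and Ptp61F ran with dome. Both r are descriptions over 12 arrays, and dome, Stat92E and Ptp61F were themselves among the 7194 probe sets. What differed between these arrays was not tested.

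**Figure D3:**
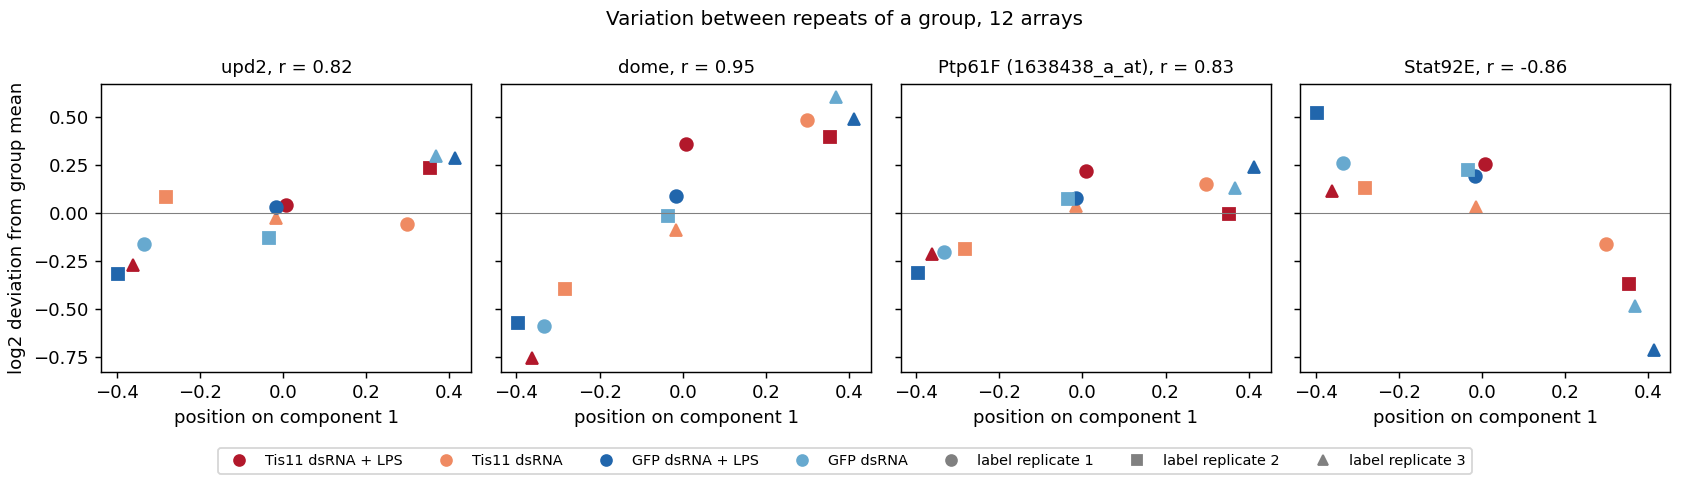
Log2 deviation of each array from its group mean (vertical axis) for upd2, dome, Ptp61F by 1638438_a_at and Stat92E, against the position of the array on the first component of the variation within groups (horizontal axis, no unit), 12 arrays each. In each group the arrays spread along the component, dome from low to high (r = 0.95) and Stat92E from high to low (r = −0.86).

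Taken in pairs over the 12 arrays, dome followed both Ptp61F probe sets, with r = 0.80 (rho = 0.73) for 1635729_a_at and r = 0.88 (rho = 0.80) for 1638438_a_at. It ran with upd2 (r = 0.75, rho = 0.71) and against Stat92E (r = −0.60, rho = −0.64). After group means were subtracted, r between dome and Stat92E was −0.71. All these points share the 12 arrays and the component described above.

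The genes whose signals were most like each member, among 6281 or 6282 probe sets of other single genes whose mean was 6 or more, had Pearson's r over 12 arrays of 0.938 to 0.984. For dome they were MCTS1 (0.976), Vta1 (0.975) and betaCOP (0.973). For Stat92E they were Cap-G (0.982), srp (0.970) and rod (0.966). For Ptp61F by 1635729_a_at they were PhKgamma (0.984), CG9003 (0.979) and Ubc6 (0.979), and by 1638438_a_at Tsp42El (0.943), CG8944 (0.942) and Marf (0.938). The lists have no gene in common, also between the probe sets of Ptp61F, although these followed each other with r = 0.85. The r values are the highest of 6281 or 6282 over arrays that share the components described above. They do not mark the named genes as specific partners of a member.

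Of 23 further genes of the pathway, 18 were measured, 11 of 12 regulators and 7 of 11 known or proposed targets, with the probe set of the highest mean for genes with several. The regulator lwr and the targets TotA, TotM, TotX and Tep1 have no probe set of their own in the annotation used here. The study lists TotA among its Tis11-sensitive mRNAs, which could not be checked here. None of the 18 rose and none fell past the adjusted test in any of the 7 comparisons, which at most 0.155% of all probe sets passed. At an unadjusted limma p under 0.05 there were 2 of 18 for LPS over both backgrounds, et and vir-1, against 4.32% of all probe sets. There was 1 of 18, vir-1, for Tis11 kd without LPS (1.1% of all), with LPS (2.6%) and over both states (1.86%).

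The regulator et encodes a short receptor related to Domeless that lowers signaling, and its gene is the coding neighbour of dome on chromosome X. With LPS it read 9.67, 9.22 and 8.95 in Tis11 kd cells, against 9.54, 9.59 and 9.81 in Tis11 kd cells without LPS. In GFP kd cells it read 9.50, 9.0 and 9.07 with LPS, against 9.34, 9.74 and 9.56 without. The groups overlap in both backgrounds, and the LPS difference over both was −0.37 ± 0.14 (SE; limma, unadjusted p = 0.0225, adjusted p = 1.00). Over the 12 arrays its r with dome was 0.41 (rho = 0.23).

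The target vir-1, a gene induced by virus infection, had the largest difference of the list. With LPS it read 9.73, 9.97 and 9.73 in Tis11 kd cells, all above the 8.82, 8.64 and 9.67 in GFP kd cells, whereas without LPS the groups overlap. With LPS, 9.73% of all probe sets had groups that do not overlap. The Tis11 kd difference over both LPS states was 0.84 ± 0.23 (SE; limma, unadjusted p = 0.0036). The LPS difference over both backgrounds was 0.50 ± 0.23 (unadjusted p = 0.049), and the limma adjusted p of each was 1.00. The study reports vir-1 mRNA as strongly raised by Tis11 kd, by array without LPS and by qPCR. A reporter mRNA with the AU-rich element of vir-1 was stabilized by Tis11 kd in that study. The half-life of vir-1 mRNA itself was beyond its measured range with either dsRNA. Over the 12 arrays vir-1 ran opposite to Stat92E, with r = −0.57 (rho = −0.72), and with r = −0.89 after group means were subtracted. Both genes followed the first component of the variation within groups, with shares of 78.8% for vir-1 and 74.4% for Stat92E.

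By the probe set of the highest mean, the other inhibitors and regulators were well above background. These means ran from 8.01 (Socs16D) to 9.52 (ken, a transcriptional repressor). The other Socs16D probe set had a mean of 3.90, under 6. The other Su(var)2-10 probe set had a mean of 7.53, and its LPS difference over both backgrounds was 0.007, against −0.11 by the probe set counted. For LPS over both backgrounds, 6 of the 11 regulators were above 0, with a median of 0.01 (49.4% of all probe sets were above 0), and the suppressor of cytokine signaling genes Socs16D and Socs44A were at −0.25 and 0.08. For Tis11 kd over both LPS states, 3 of 11 were above 0, with a median of −0.04, against 55.3% and a median of 0.01 over all probe sets. The interaction was below 0 for all 11, between −0.22 and −0.01 with a median of −0.13, while 52.2% of all probe sets were above 0. That share was not matched for level, as all 11 had means of at least 8.01 and 38.3% of all probe sets reached 6. The interaction was likewise below 0 for all 8 plasmatocyte markers, 3 of 4 lamellocyte markers and 2 of 3 neuron markers. For targets it was below 0 in 4 of 7, and for crystal cell markers in 2 of 4. It was above 0 for 5 of 5 antimicrobial peptide genes and 3 of 4 fat body markers. All lists share the same 12 arrays, so genes within a list do not count as independent.

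Among the targets, the stress genes TotB, TotC, TotF and TotZ had means of 3.42 to 5.13, under 6 as the ligands, and no group stood clear of that level. The transcription factor genes chinmo and zfh1 were at 9.64 and 10.57. For chinmo the LPS difference over both backgrounds was −0.40, −0.40 and −0.42 by its 3 probe sets. None of these passed an unadjusted limma p of 0.05. The probe set with −0.42 had a mean of 4.90, under 6. For zfh1 the LPS difference over both backgrounds was −0.16.

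**Figure D4:**
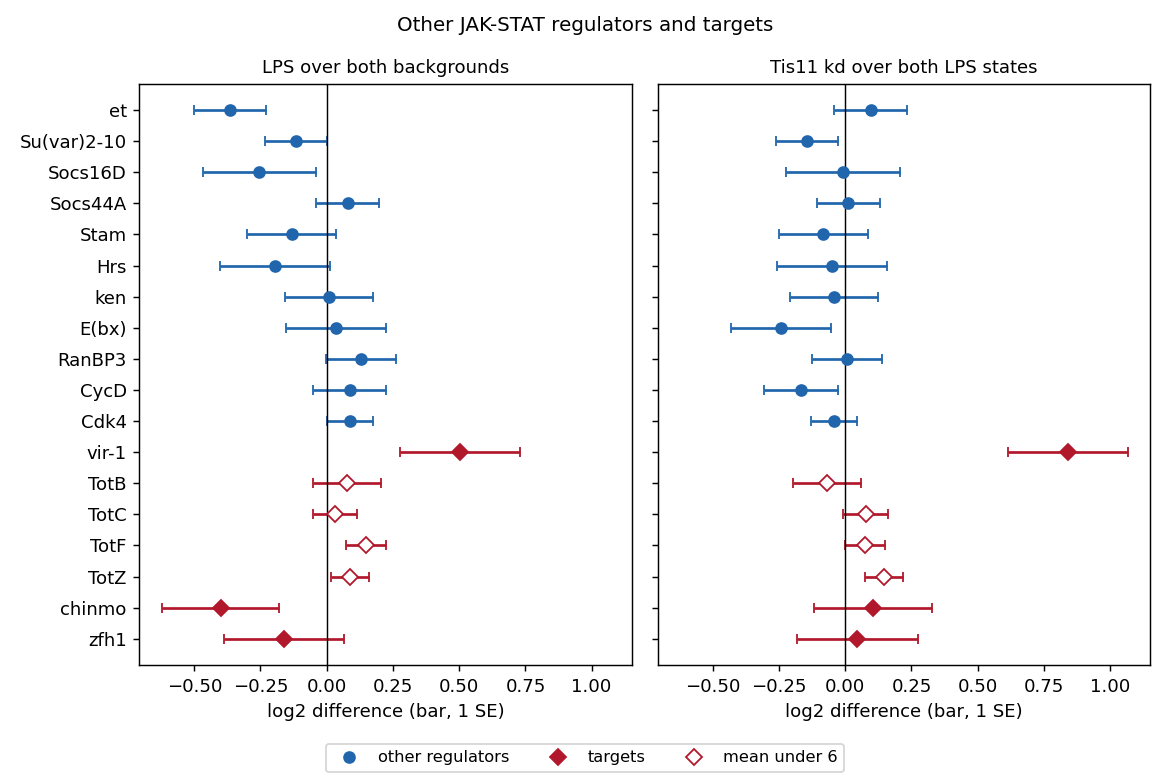
Log2 difference (horizontal axis) of the 18 measured further pathway genes for LPS minus no LPS over both backgrounds and for Tis11 kd minus GFP kd over both LPS states, with limma's SE as bars; circles are regulators, diamonds targets, open symbols genes with a mean under 6. The genes farthest from 0 are vir-1, at 0.50 and 0.84, and for LPS also chinmo at −0.40 and et at −0.37.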

How the data were processed

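Total RNA of SL2 cells was hybridized to Affymetrix Drosophila Genome 2.0 arrays. The authors normalized the arrays with RMA, and the deposited table holds log2 values of 18952 probe sets. The tool's version, a genome build and whether RMA was run on all 12 arrays at once are not given in the sources used here. Groups were taken from the sample titles. The 183 control probe sets were dropped, and tests ran over the other 18769, of which 402 are annotated to several genes. The 4 comparisons of 3 arrays against 3 were fitted on their own 6 arrays and the 3 over both factors on all 12, with limma 3.58.1 in R 4.3.3 (lmFit, eBayes). A Benjamini-Hochberg adjusted p under 0.05 counted as a call. Single probe sets were also compared by exact permutation over arrays. The p-values set a difference against the spread between biological repeats. That spread includes the variation shared between genes that is described above. The number of arrays also limits the precision.

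The tests were repeated with a replicate block, on all 12 arrays at once, with a minimum mean of 6, after median centring or quantile normalization, with an intensity trend, with the methods' t-test, and without each array in turn. All member probe sets and counts over the further lists are named, with the 3 most correlated genes of each member above 6. The members, lists and tests were chosen with earlier results of these data known. Components were computed after the data were seen. Plots were made in Python 3.11.15 (matplotlib 3.10.9).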

Additional observations from a re-analysis of the deposited data

How the results depend on the processing

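In all 7 comparisons 0 of the 6 probe sets were called under every alternative run. The smallest limma adjusted p of any of them was 0.829, for Stat92E with LPS in Tis11 kd cells without Tis11 kd with LPS replicate 1. Of the values of single probe sets under alternatives, 519 kept their direction and 85 did not, all of them uncalled. Only upd2 reached an unadjusted limma p under 0.05, at 0.0466 with a difference of 0.26, for Tis11 kd without LPS when GFP kd replicate 3 was left out.

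Direction changed with scaling for values near 0, and the cause was not tested. For upd1, median centring and quantile normalization again gave 0.0146 and 0.00787 for Tis11 kd without LPS, −0.0566 and −0.0494 with LPS, −0.0210 and −0.0208 over both LPS states, and −0.0713 and −0.0573 for the interaction. For upd2 over both LPS states they gave −0.0232 and −0.0247. Quantile normalization again gave 0.0404 for dome over both LPS states and −0.0339 for Ptp61F by 1638438_a_at for LPS in GFP kd cells, and median centring gave −0.00390 for Ptp61F by 1638438_a_at over both LPS states.

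Leaving out 1 array at a time turned the direction of some differences. For LPS in Tis11 kd cells the range was −0.13 to 0.12 for upd2 and −0.45 to 0.13 for dome. For LPS in GFP kd cells the range was −0.26 to 0.34 for dome, −0.36 to 0.26 for Stat92E, −0.30 to 0.18 for Ptp61F by 1635729_a_at and −0.0985 to 0.18 for Ptp61F by 1638438_a_at. For LPS over both backgrounds it was −0.25 to 0.0836 for dome. For Tis11 kd without LPS it was −0.0589 to 0.0615 for upd1, −0.15 to 0.44 for dome, −0.0961 to 0.28 for Stat92E and −0.0152 to 0.12 for Ptp61F by 1635729_a_at. For Tis11 kd with LPS it was −0.0237 to 0.0888 for upd1, −0.26 to 0.0403 for upd2, −0.44 to 0.23 for dome, −0.44 to 0.18 for Stat92E, −0.53 to 0.13 for Ptp61F by 1635729_a_at and −0.26 to 0.0156 for Ptp61F by 1638438_a_at. For Tis11 kd over both LPS states it was −0.0187 to 0.0422 for upd1, −0.0728 to 0.0805 for upd2, −0.15 to 0.19 for dome, −0.14 to 0.16 for Stat92E, −0.23 to 0.10 for Ptp61F by 1635729_a_at and −0.0528 to 0.0851 for Ptp61F by 1638438_a_at. For the interaction it was −0.0402 to 0.0931 for upd1, −0.59 to 0.0888 for dome, −0.58 to 0.0378 for Stat92E and −0.59 to 0.0666 for Ptp61F by 1635729_a_at. Other differences kept their direction but some moved by over 1.5 times. For LPS in Tis11 kd cells the range was −0.45 to −0.14 for Stat92E, −0.62 to −0.07 for Ptp61F by 1635729_a_at and −0.35 to −0.13 for Ptp61F by 1638438_a_at. For LPS over both backgrounds it was −0.34 to −0.03 for Stat92E and −0.38 to −0.10 for Ptp61F by 1635729_a_at, and for LPS in GFP kd cells 0.06 to 0.36 for upd2.

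The replicate numbers did not pair the arrays. Of 18 same-numbered pairs, 4 had a correlation of deviations from the group mean over 0.1, with a range of −0.83 to 0.87. Of 36 best matches, 6 carried the same number. Arrays of different groups did match under other numbers, with r up to 0.93, for Tis11 kd replicate 2 and GFP kd replicate 1. The tests took no account of such matches, and a block by them was not tested. With the replicate number as a block, 4 of all probe sets were called for LPS in Tis11 kd cells (15 without it), 13 in GFP kd cells (10) and 20 over both backgrounds (29), and 0 of the 6 probe sets in each. The methods' t-test called 0 of all for LPS in Tis11 kd cells and 1 in GFP kd cells. Without 1 array the counts ran from 6 to 26, from 0 (without GFP kd replicate 2) to 14, and from 18 to 38 in these comparisons. With 3 arrays a group, the intervals of dome reach beyond 1 log2 unit in both 3-against-3 comparisons that use Tis11 kd with LPS. Those of Ptp61F by 1635729_a_at do so too. Signals of upd1 and upd2 near background limit what could be seen of the ligands.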
